A study of Mus musculus with 17 samples.

Results

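F-box proteins are the parts of SCF ubiquitin ligases that recognize the protein to be degraded, and their genes are described here in the diaphragm of tumor-bearing and tumor-free mice. The members are the rows of the expression table whose symbol begins with Fbxl, Fbxo or Fbxw and a digit. Symbols with a hyphen and the genes Fbxo32, Fbxo30, Fbxo21 and Fbxo31 were left out. This gave 76 of 47643 symbols, of which 19 were Fbxl, 33 Fbxo and 24 Fbxw. The rule used names alone and no measured value. It also took in Fbxl12os, an antisense RNA gene that encodes no F-box protein, and listed Fbxw14 as 2 separate rows.

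RNA was sequenced from the diaphragm, the main muscle of breathing, of 17 male C57BL/6J mice aged 4 months. Tumor-bearing mice carried Lewis lung carcinoma (LLC) cells, a mouse lung cancer line, implanted under the skin of the flank. The other treatment was rFibcd1, a recombinant fragment of the muscle-secreted protein Fibcd1, injected into the abdominal cavity, and mice without it had a mock injection of buffer with albumin. The groups were Control (n = 5, no tumor, mock), Control + rFibcd1 (n = 5, no tumor), LLC (n = 3, tumor, mock) and LLC + rFibcd1 (n = 4, tumor). The mice were wild type, part of each diaphragm was used, and the tumor comes from 1 cell line. Levels are given in TPM, the share of a gene among all transcripts of a mouse, corrected for gene length and scaled by the authors to a total of 1e+06 in each mouse.

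An SCF ligase joins Skp1, the scaffold cullin Cul1 and the RING protein Rbx1, and an F-box protein binds Skp1 through its F-box and the substrate through a second domain. In the Fbxl family this second domain is made of leucine-rich repeats, in the Fbxw family of WD repeats, and in the Fbxo family it varies. In muscle the group is best known for Fbxo32 (atrogin-1), which is induced in wasting, and other members act in signaling, the cell cycle and mitochondrial turnover.

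Depth was alike among the mice. The smallest steps of the TPM values, with gene lengths from GENCODE vM21, corresponded to 50700000 to 54500000 reads per mouse, with 82.6% to 85.5% of the low values within 0.02 of a whole read. The muscle markers (Acta1, Ckm, Ttn, Tnnt3 and 4 myosin heavy chains) summed to 45900 to 50000 TPM in Control and to 40200 to 41900 TPM in LLC. The 8 B cell markers summed to 2.68 to 107 TPM in Control, 249 to 317 in LLC, 20 to 312 in LLC + rFibcd1 and 3.90 to 153 in Control + rFibcd1. LLC + rFibcd1 replicate 3 (312 TPM) lay in the range of the LLC mice, and Control + rFibcd1 replicate 1 (153 TPM) above every Control mouse. The macrophage markers summed to 123 to 221 TPM in Control and 301 to 368 TPM in LLC, and the neutrophil markers to 1.79 to 14.1 TPM and 44 to 104 TPM. In bulk tissue, fewer cells of a type and less RNA per cell cannot be told apart. Mitochondrially encoded genes took 45.9% to 48.4% of TPM in Control and 41.3% to 44.3% in LLC. The median of all 13305 tested genes was 0.16 higher in LLC on the log2(TPM + 1) scale, and 0.0748 higher when mitochondrial genes were left out. Differences are given on that scale with their standard errors, and "relative to the median gene" means after subtracting this shift. Because of the shift, results were also computed with 3 other scalings: TPM recomputed without mitochondrial genes, median-ratio scaling, which divides each mouse by the median ratio of its genes to their mean over mice, and quantile normalization, which gives all mice the same distribution.

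The diaphragm expressed 46 of the 76 members at 1 TPM or more in at least 3 mice, and these were tested. Their mean level in Control ran from 0.966 to 91.3 TPM, with a median of 6.5 TPM against 7.41 TPM over all tested genes. The most abundant member was Fbxo40, a gene largely restricted to striated muscle whose protein targets the insulin receptor substrate Irs1, at 91.3 ± 8.30 TPM in Control (SD, n = 5). It alone made up 18.1% of the summed TPM of the members. Next came Fbxw5, which acts on the centrosome protein Sas-6, at 39.4 ± 1.35 TPM, and Fbxo3 at 30.1 ± 1.19 TPM. Fbxo9 (25.7 ± 1.58) and Fbxo6 (23.6 ± 1.45), a receptor for glycoproteins exported from the endoplasmic reticulum, followed. The SDs of Fbxo3, Fbxo9 and Fbxo6 show that Fbxo9 and Fbxo6 do not differ beyond their spread, whereas the step from Fbxo40 to Fbxw5 exceeds it. Also among the 10 most abundant members were Fbxw11 (19.9 ± 0.736), the second beta-TrCP and a receptor for phosphorylated beta-catenin and I-kappa-B, Fbxo22 (19.2 ± 0.892), Fbxo11 (18.9 ± 1.19) and Fbxw8 (17.1 ± 0.596). Of these, Fbxw11, Fbxo22 and Fbxo11 lay within each other's spread. Among the tested members, 18 were under 5 TPM in Control.

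**Figure D1:**
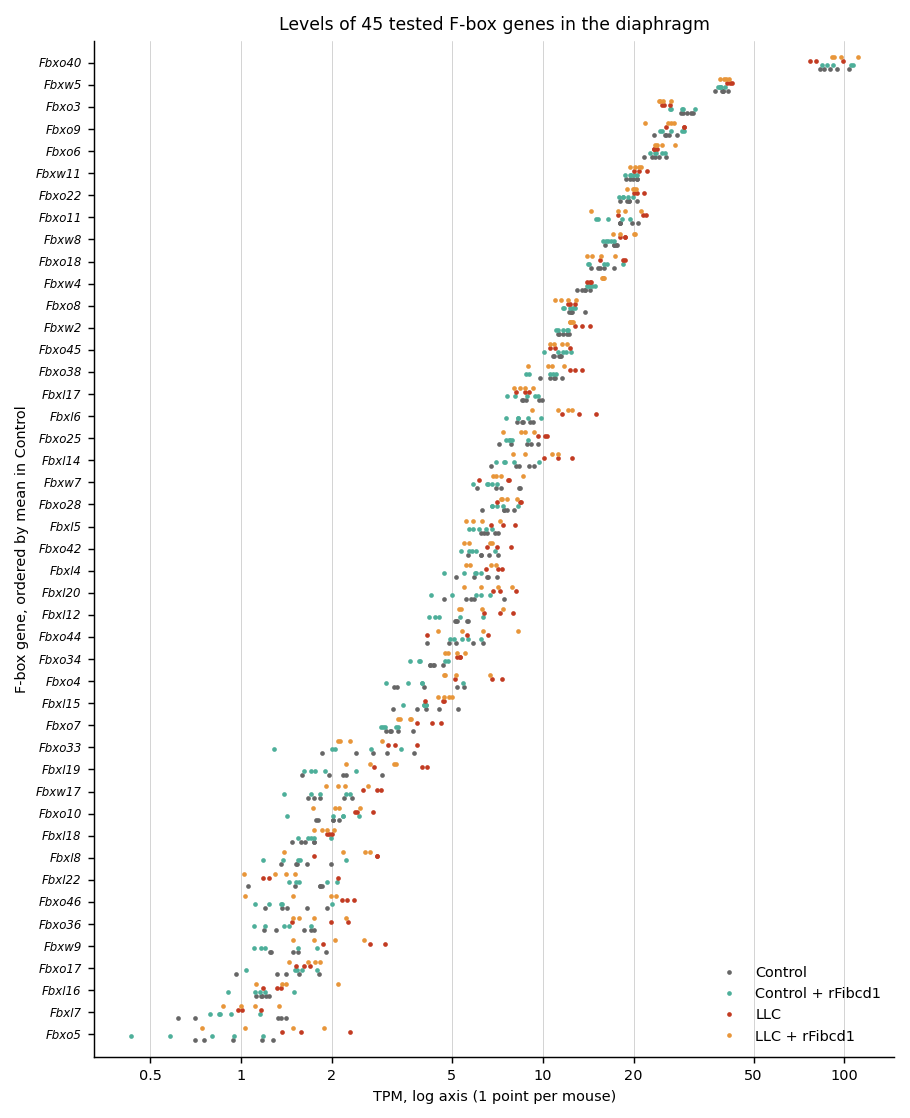
TPM of 45 tested F-box genes on a log axis, 1 point per mouse, with the genes ordered by their mean in Control and the 4 groups in 4 colors. Fbxo40 stands apart at 77.2 to 111 TPM, and 18 genes lie under 5 TPM in Control.

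The other 30 members did not reach the filter and were not tested. Of these, 15 rows belong to a run of Fbxw genes on chromosome 9 (Fbxw13 to Fbxw27 without Fbxw17), of which the 13 with 1 GENCODE entry span 651 kb (GRCm38, 109139447 to 109790670, minus strand). In this run 10 rows were listed at 0 in every mouse (Fbxw14, with both rows, Fbxw16, Fbxw18, Fbxw19, Fbxw21, Fbxw22, Fbxw23, Fbxw25 and Fbxw27), and Fbxw23 is annotated as a pseudogene. Fbxw15, Fbxw20, Fbxw24 and Fbxw26 were above 0 in 1 mouse each, at the level of 1 read. Fbxw13 was the exception, with up to 0.684 TPM or 25 reads, and was above 0 in 13 mice. These genes are near copies of each other, so reads may have been split among them. The remaining untested members included Fbxo2, a glycoprotein receptor of the brain (0.124 to 0.770 TPM), Fbxl21 (0.0469 to 0.191 TPM) and Fbxo43, the meiotic relative of Fbxo5 (at most 0.0199 TPM).

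The comparison of LLC with Control asks how the tumor changed F-box gene expression. In LLC, 13 of the 46 members (28.3%) were higher and 1 (2.17%) was lower at an adjusted p under 0.05, where 29.7% of all tested genes were higher and 6.02% lower. The 14 members called were thus 30.4% of those tested, beside 35.8% of all genes. The median difference of the members was 0.14, and 20 members lay above and 26 below the median gene at 0.16. The test was limma on log2(TPM + 1) with Benjamini-Hochberg adjustment over all 13305 genes. By family, 4 of 15 tested Fbxl, 7 of 23 Fbxo and 3 of 8 Fbxw genes were called, and the medians of their differences were 0.145, 0.144 and 0.0958. The groups did not overlap for 14 members and for 40.2% of all genes. The 13 called higher had a median of 4.24 TPM in Control and ran up to 11.7 TPM (Fbxw2), and the members not called had a median of 7.39 TPM, a difference that was not tested.

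Fbxl6, a leucine-rich repeat member (chromosome 15, 76535721 to 76538746, minus strand, GRCm38), had the smallest p of all members. It was at 9.06, 9.31, 8.22, 8.6 and 8.56 TPM in the Control mice and at 15, 11.6 and 13.2 TPM in the LLC mice. In Control + rFibcd1 it was at 9.88, 8.25, 7.55, 8.27 and 8.90 TPM, and in LLC + rFibcd1 at 11.2, 12.1, 12.5 and 9.20 TPM. All LLC mice were above all Control mice, and of the LLC + rFibcd1 mice only replicate 4 fell within the range of the tumor-free mice. Fbxl6 rose by 0.54 ± 0.10 in LLC (adjusted p = 0.00818), which is 0.38 above the median gene. Without LLC replicate 3 the difference was 0.54 with an adjusted p of 0.0569, and once a B cell score, the mean of the B cell markers on the log2 scale, was added to the fit it was 0.34 with an adjusted p of 0.188.

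Fbxl19, whose protein binds CpG islands through a CXXC domain (chromosome 7, 127744543 to 127769483, plus strand), was at 2.22, 2.92, 1.95, 1.59 and 2.17 TPM in Control and at 3.97, 2.76 and 4.13 TPM in LLC. Fbxw9, a WD-repeat member (chromosome 8, 85060055 to 85067124, plus strand), was at 1.49, 1.91, 1.25, 1.54 and 1.26 TPM in Control and at 2.68, 1.87 and 3.00 TPM in LLC. Fbxo4, which binds the telomere protein TRF1 (chromosome 15, 3965445 to 3979573, minus strand), was at 5.21, 5.50, 3.20, 4.03 and 3.28 TPM in Control and at 6.81, 5.10 and 7.31 TPM in LLC. In each of these genes LLC replicate 2 was the lowest LLC mouse and lay within the Control range, while the other LLC mice were above it. Fbxl19 rose by 0.54 ± 0.14 (adjusted p = 0.0140), Fbxw9 by 0.49 ± 0.14 (adjusted p = 0.0179) and Fbxo4 by 0.51 ± 0.18 (adjusted p = 0.0356). Without LLC replicate 3 their adjusted p was 0.0824, 0.105 and 0.157.

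The promoters of the 3 members with the largest rise that have an entry in RefSeq (GRCm38.p6) are printed with that of Fbxo40, the most abundant member, which did not pass the test. Each is 300 bases from 250 before to 50 after the outermost start in the RefSeq table, read 5′ to 3′ on the gene's strand. For Fbxl19 this start lies inside the gene as GENCODE draws it, downstream of the gene start given above. Capitals mark matches on either strand to GGGCGG, the GC box of Sp factors, and to CAGCTG, an E-box of the kind bound by MyoD. CCAAT and the letters CACGTG and TATAAA were searched too and have no match in these 4 windows.
Fbxl19, chr7:127746028-127746327, plus strand: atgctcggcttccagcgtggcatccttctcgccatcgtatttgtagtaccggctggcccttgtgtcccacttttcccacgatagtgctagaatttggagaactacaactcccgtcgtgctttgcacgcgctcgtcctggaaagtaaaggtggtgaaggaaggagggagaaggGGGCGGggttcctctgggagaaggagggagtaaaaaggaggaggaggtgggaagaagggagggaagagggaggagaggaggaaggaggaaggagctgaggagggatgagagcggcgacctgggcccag
Fbxo4, chr15:3979524-3979823, minus strand: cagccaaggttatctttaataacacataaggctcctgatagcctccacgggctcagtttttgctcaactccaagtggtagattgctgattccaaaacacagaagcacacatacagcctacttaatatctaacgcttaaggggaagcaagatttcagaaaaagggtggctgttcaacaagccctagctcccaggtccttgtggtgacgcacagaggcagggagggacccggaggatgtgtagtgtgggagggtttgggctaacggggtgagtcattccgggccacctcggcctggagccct
Fbxw9, chr8:85059869-85060168, plus strand: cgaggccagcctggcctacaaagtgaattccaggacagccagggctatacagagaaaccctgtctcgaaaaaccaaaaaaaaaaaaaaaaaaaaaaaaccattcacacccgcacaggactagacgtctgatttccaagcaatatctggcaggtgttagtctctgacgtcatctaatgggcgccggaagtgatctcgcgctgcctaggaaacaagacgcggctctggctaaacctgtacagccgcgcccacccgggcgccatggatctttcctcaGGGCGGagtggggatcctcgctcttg
Fbxo40, chr16:36990418-36990717, minus strand: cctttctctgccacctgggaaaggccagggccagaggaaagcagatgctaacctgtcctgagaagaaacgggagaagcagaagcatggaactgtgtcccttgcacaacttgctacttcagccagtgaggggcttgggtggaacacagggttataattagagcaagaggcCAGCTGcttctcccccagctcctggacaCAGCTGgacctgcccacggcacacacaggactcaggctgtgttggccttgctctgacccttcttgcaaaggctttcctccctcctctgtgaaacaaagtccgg

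Fbxl19 and Fbxw9 hold 1 GC box each, Fbxo40 holds 2 of these E-boxes, and Fbxo4 holds none of the letters searched. Of the tested members, 35 have a promoter in the table, and 23 of these (65.7%) contain GGGCGG, as do 63% of the 9875 tested genes that have a promoter and 35.7% of all 32851 promoters of the same length. The share in the members is thus close to that of the genes expressed in the diaphragm. CAGCTG is in 8 of the 35 (22.9%), in 15.2% of the tested genes and in 16.3% of all promoters. CCAAT is in 9 (25.7%), 38.2% and 37.4%, CACGTG in 2 (5.71%), 10.3% and 7.15%, and TATAAA in 0, 7.64% and 13.6%. A match is a description of the letters and not of a bound site.

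Fbxo3 was the only member called lower in LLC. Its protein is known for targeting Fbxl2, and the gene lies on chromosome 2 (104027721 to 104063240, plus strand). It was at 30.0, 29.1, 28.8, 31.6 and 31.0 TPM in Control and at 26.5, 24.9 and 25.2 TPM in LLC. In Control + rFibcd1 it was at 26.4, 31.9, 26.6, 28.9 and 29.2 TPM, and in LLC + rFibcd1 at 24.3, 24.4, 26.6 and 25.1 TPM. Every tumor-bearing mouse was below every Control mouse, and the Control + rFibcd1 mice ranged from the level of the tumor-bearing mice to that of Control. Fbxo3 fell by 0.23 ± 0.06 (adjusted p = 0.0130), which is 0.39 below the median gene. Without LLC replicate 3 it fell by 0.22 (adjusted p = 0.0725).

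Fbxw2, which acts on the transcription factor Gcm1 (chromosome 2, 34804514 to 34826311, minus strand), was at 11.2 to 12.2 TPM in Control, with a median of 11.7, and at 14.3, 12.8 and 13.5 TPM in LLC. It was at 12.3, 12.6, 12.5 and 12.3 TPM in LLC + rFibcd1 and at 12.1, 11.7, 11.1, 11.2 and 12 TPM in Control + rFibcd1. It was the only member for which all 7 tumor-bearing mice lay apart from all 10 tumor-free mice, as 2.26% of all tested genes did. The margin was narrow, with 12.3 TPM in the lowest tumor-bearing mouse and 12.2 TPM in the highest tumor-free mouse. Fbxw2 rose by 0.20 ± 0.05 in LLC (adjusted p = 0.0113) as deposited, but was at 0.003 with median-ratio scaling and reversed to -0.048 with quantile normalization. Relative to the median gene its difference was 0.04.

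**Figure D2:**
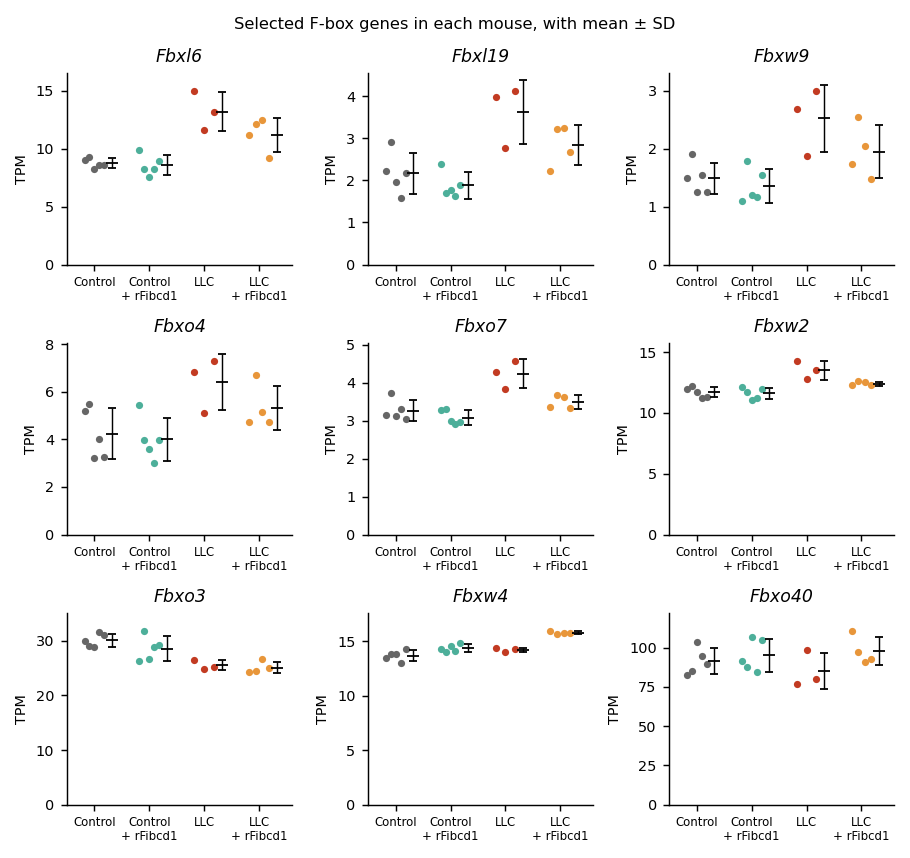
TPM of 9 F-box genes in each mouse by group, on axes that start at 0, with 1 point per mouse and the mean ± SD beside the points. Fbxl6, Fbxl19, Fbxw9, Fbxo4 and Fbxo7 have their highest mean in LLC, Fbxo3 is lower in both tumor groups, and the 4 LLC + rFibcd1 mice have the highest Fbxw4 values at 15.7 to 16.0 TPM.

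The other members called higher in LLC differed by 0.23 to 0.48. Fbxl14, which acts on the transcription factor Snail, rose by 0.40 ± 0.12 (adjusted p = 0.0223), from 8.31 ± 1.01 TPM (SD, n = 5) to 11.3 ± 1.15 TPM (SD, n = 3). Fbxo46 rose by 0.38 ± 0.14 (adjusted p = 0.0453) and Fbxl12, which acts on calmodulin kinase I, by 0.37 ± 0.12 (adjusted p = 0.0254). Fbxw17 rose by 0.35 ± 0.11 (adjusted p = 0.0265) and Fbxo34 by 0.23 ± 0.08 (adjusted p = 0.0315). These are values as deposited. With quantile normalization Fbxl14 was at 0.14, Fbxl12 at 0.07, Fbxo46 at 0.06, Fbxw17 at 0.02 and Fbxo34 at -0.087, and of these calls that of Fbxl14 without mitochondrial genes was the only one kept under another scaling. Exons of Fbxl12 overlap Ubl5 on the opposite strand over 37.1% of their bases, those of Fbxo46 overlap Qpctl over 9.50%, and those of Fbxw9 overlap a noncoding gene over 6.40%. Whether the authors' counting used strand is not given in the sources used here, so the values of these genes may include reads of their partners. Leaving out LLC replicate 3 ended all 14 calls, with adjusted p between 0.0569 and 0.227, and brought the count over all genes from 4759 to 24.

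The direction of the group as a whole depended on how the libraries were scaled. Of all called genes, 83.2% were higher in LLC as deposited, 62.9% when mitochondrial genes were left out, 48.5% with median-ratio scaling and 32.2% with quantile normalization. The members moved in the same direction, with 13 higher and 1 lower as deposited, 5 and 1 without mitochondrial genes, 3 and 4 with median-ratio scaling, and 1 and 7 with quantile normalization. Of all tested genes, 29.7% were higher and 6.02% lower as deposited, and 18.7% and 11% without mitochondrial genes. These shares were 14.4% and 15.3% with median-ratio scaling, and 11.3% and 23.9% with quantile normalization. In each case the members, counted out of 46, were called less often. The median of the members was 0.14, 0.049, -0.041 and -0.097 under these settings, and that of all genes 0.16, 0.0748, -0.0130 and -0.0989. Of the 14 calls, 6 were kept without mitochondrial genes (Fbxl6, Fbxl14, Fbxl19, Fbxw9, Fbxo7 and Fbxo3), 4 with median-ratio scaling and 2 with quantile normalization. Fbxl6 was called higher and Fbxo3 lower under all 4. With median-ratio scaling Fbxl6 rose by 0.35 (adjusted p = 0.00963) and Fbxo3 fell by 0.43 (adjusted p = 0.00964), and Fbxl19 and Fbxw9 were still called at 0.38 and 0.35 (adjusted p = 0.0213 and 0.0385). Fbxl17 and Fbxo45, named here after their values were seen, were called lower with median-ratio scaling by -0.26 and -0.18 and with quantile normalization, and not as deposited, where they were at -0.07 and 0.01.

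**Figure D3:**
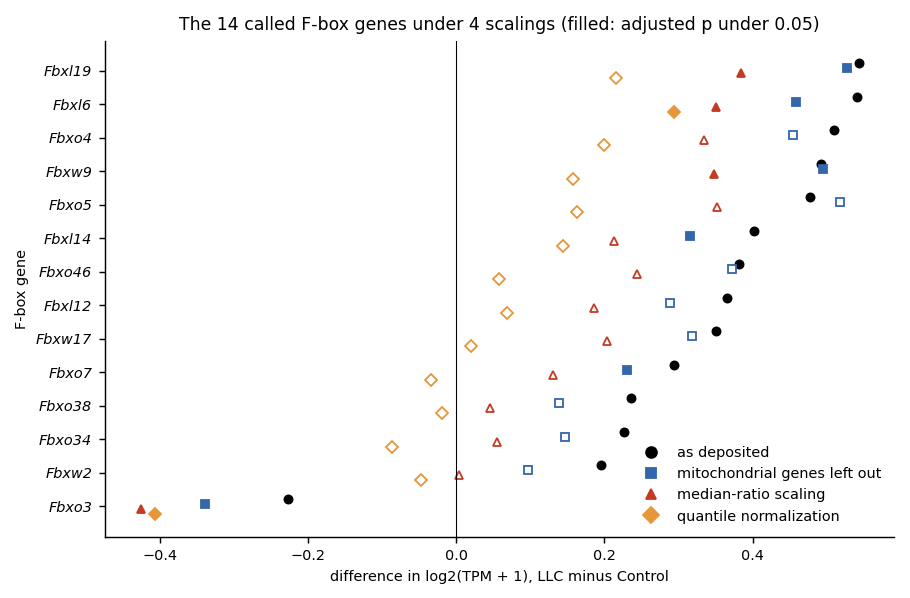
Difference in log2(TPM + 1) between LLC and Control for the 14 F-box genes called as deposited, under 4 scalings, with filled marks for an adjusted p under 0.05. Fbxl6 (0.54 to 0.29) and Fbxo3 (-0.23 to -0.43) are filled under each scaling, while Fbxo7, Fbxo38, Fbxo34 and Fbxw2 lie below 0 with quantile normalization.

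By function, the cell cycle members held 2 of 4 tested genes that rose in LLC as deposited, where 29.7% of all genes did. Fbxo5 (Emi1), the inhibitor of the anaphase-promoting complex, was at 0.703 to 1.27 TPM in Control and at 1.58, 1.37 and 2.29 TPM in LLC, with no overlap, and rose by 0.48 ± 0.18 (adjusted p = 0.0464). Fbxo4 is the other. Fbxw7, the receptor for cyclin E, Myc and Notch, was at 7.42 ± 0.986 TPM in Control (SD, n = 5) and 7.18 ± 0.887 in LLC (SD, n = 3), a difference of -0.04 ± 0.10 (adjusted p = 0.780). With quantile normalization Fbxw7 was called lower at -0.34 (adjusted p = 0.0224). Fbxw11 differed by 0.08 ± 0.05 (adjusted p = 0.169) as deposited and was below 0 under the 3 other scalings, at -0.12 with median-ratio scaling. Fbxo4 and Fbxo5 stayed above 0 but were called under none of the 3. The 6 proliferation markers summed to 1.54 to 4.92 TPM in Control and 8.17 to 12.9 TPM in LLC, and 5 of the 5 tested were higher; their part in the Fbxo5 difference was not tested.

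Of the mitochondrial members, Fbxo7, which works with Pink1 and Parkin in mitochondrial clearance and is linked to parkinsonism, was at 3.14, 3.72, 3.12, 3.31 and 3.03 TPM in Control and at 4.29, 3.83 and 4.58 TPM in LLC. The groups did not overlap, and Fbxo7 rose by 0.29 ± 0.07 (adjusted p = 0.0112), against -0.034 with quantile normalization. Fbxl4, which restrains mitophagy, differed by 0.14 ± 0.10 (adjusted p = 0.25) as deposited and by -0.16 with quantile normalization (adjusted p = 0.195).

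No striated muscle member passed the test in LLC against Control. Fbxo40 was at 82.8 to 104 TPM in Control, with a median of 89.7, and at 77.2, 98.6 and 80.4 TPM in LLC, so that the groups overlapped, with a difference of -0.10 ± 0.10 (adjusted p = 0.459) as deposited and of -0.30 with median-ratio scaling (adjusted p = 0.103). Fbxl22, a sarcomeric member that targets alpha-actinin, differed by -0.07 ± 0.14 (adjusted p = 0.713) as deposited and by -0.39 with quantile normalization (adjusted p = 0.0585). In all tumor-bearing against all tumor-free mice Fbxl22 was called lower with median-ratio scaling and quantile normalization, at -0.25 and -0.40 (adjusted p = 0.0385 and 0.00983). Fbxo25, the closest relative of Fbxo32, was at 10.2, 9.61 and 10.3 TPM in LLC and 7.15 to 9.66 TPM in Control, a difference of 0.21 ± 0.09 (adjusted p = 0.0645) that was -0.05 with quantile normalization.

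The remaining groups held 1 call. Among the lymphocyte-regulator members, Fbxo38, which controls PD-1 on T cells, was at 13.5, 12.3 and 12.8 TPM in LLC and 9.80 to 11.6 TPM in Control, and rose by 0.24 ± 0.09 (adjusted p = 0.0466) as deposited but was at -0.019 with quantile normalization. Fbxo11, which acts on the B cell factor Bcl6, differed by 0.10 ± 0.11 (adjusted p = 0.490), and Fbxo10 by 0.26 ± 0.10 (adjusted p = 0.0663), both below 0 with quantile normalization. The T cell markers summed to 2.20 to 17.1 TPM in Control and 29.4 to 47.8 TPM in LLC, and the part of these cells was not tested. The iron sensor Fbxl5 was at 0.14 ± 0.08 (adjusted p = 0.177) as deposited, at -0.05 with median-ratio scaling and called lower at -0.15 with quantile normalization (adjusted p = 0.0460). The 3 tested glycoprotein receptors did not pass; Fbxo6, Fbxo44 and Fbxo17 were at -0.003, 0.03 and 0.12 (adjusted p = 0.972, 0.895 and 0.394) as deposited and at -0.20, -0.27 and -0.19 with quantile normalization (adjusted p = 0.0765, 0.224 and 0.186).

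**Figure D4:**
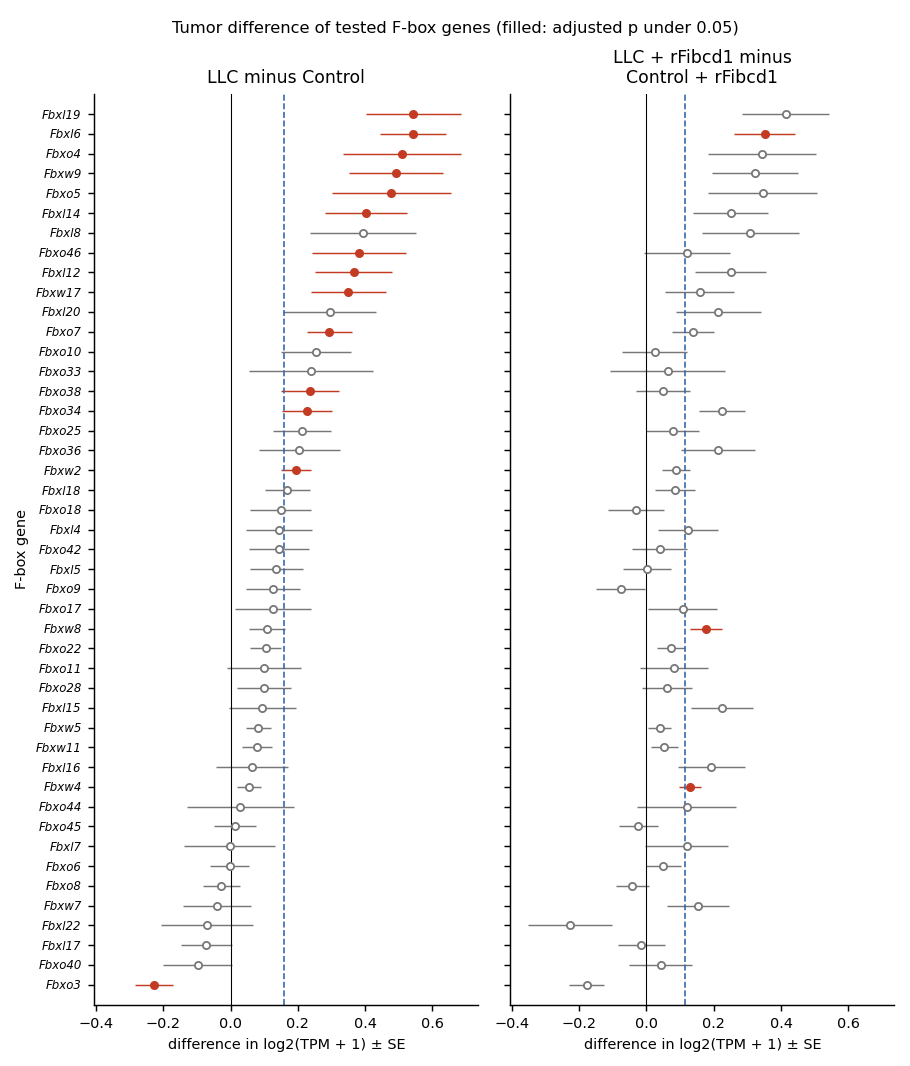
Difference in log2(TPM + 1) with its SE for 45 tested F-box genes in LLC against Control (left) and LLC + rFibcd1 against Control + rFibcd1 (right), with filled points for an adjusted p under 0.05 and a dashed line at the median of all genes (0.16 and 0.115). 14 points are filled on the left and 3 on the right, and 38 of the 45 genes have the same sign in both.

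Among mice given rFibcd1, the tumor comparison (LLC + rFibcd1 against Control + rFibcd1) called 3 members higher (6.52%) and 0 lower, where 8.06% of all genes were called, 7.02% higher and 1.04% lower. This comparison shares no mouse with that of LLC and Control. The 14 members called there, which that comparison had chosen for their difference, had the same sign here and a smaller difference, as 87.6% of all 4759 genes called there did. Over all 46 members 39 (84.8%) had the same sign, as 81.2% of all genes did. Fbxl6 rose by 0.35 ± 0.09 (adjusted p = 0.0286). This call was kept without mitochondrial genes (0.30, adjusted p = 0.0480) but not with median-ratio scaling (0.22, adjusted p = 0.0594) or quantile normalization (0.20, adjusted p = 0.0951). It was also lost without Control + rFibcd1 replicate 2, 3 or 4 and without LLC + rFibcd1 replicate 2 or 3, with adjusted p of up to 0.101. Fbxw8, which pairs with the cullin Cul7, was at 20.2, 20, 18.1 and 17.1 TPM in LLC + rFibcd1 and 15.8 to 17.2 TPM in Control + rFibcd1, and rose by 0.18 ± 0.05 (adjusted p = 0.0369). LLC + rFibcd1 replicate 4 was the mouse that overlapped. The Fbxw8 call was lost under the 3 other scalings, at 0.04 with median-ratio scaling, 0.06 with quantile normalization and 0.11 without mitochondrial genes (adjusted p = 0.717, 0.585 and 0.196). Exons of Fbxw8 overlap the gene Gm9754 on the opposite strand over 33.4% of their bases. Fbxo3 was at -0.18 ± 0.05 (adjusted p = 0.0503) as deposited and fell by 0.32, 0.29 and 0.25 (adjusted p = 0.0383, 0.0319 and 0.0284) with median-ratio scaling, quantile normalization and without mitochondrial genes. The groups did not overlap for 4 members (Fbxw2, Fbxw4, Fbxo7 and, named after its values were seen, Fbxl15), or 8.70%, and for 8.91% of all genes.

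The number of calls among rFibcd1-treated mice depended on single mice. It was 8 without Control + rFibcd1 replicate 1, the tumor-free mouse with the most B cell marker RNA, where 21.7% of all genes were called. It was 1 without Control + rFibcd1 replicate 2 (4.27% of all genes), and 0 without Control + rFibcd1 replicate 4 (4.47%) or without LLC + rFibcd1 replicate 2 (3.7%) or 3 (3.59%). The counts thus moved in the same direction as those of all genes. Of the cell type markers, 4 of 4 tested neutrophil and 4 of 6 endothelial genes were called higher in this comparison as deposited, where 7.02% of all genes were. No B cell or T cell marker was called by limma. With median-ratio scaling no neutrophil gene passed (adjusted p from 0.0584 to 0.0885), and of the endothelial genes only Pecam1 and Tek did. The neutrophil markers summed to 54.3 to 204 TPM in LLC + rFibcd1 and 2.92 to 78.1 TPM in Control + rFibcd1, and the endothelial markers to 249 to 274 TPM and 186 to 223 TPM. Their part in the member differences was not tested.

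Fbxw4 (dactylin, known for limb patterning, chromosome 19, 45578254 to 45660312, minus strand) separated LLC + rFibcd1 from every other group in TPM as deposited. The share of all genes that did so was not computed. Fbxw4 was at 16.0, 15.7, 15.8 and 15.8 TPM in LLC + rFibcd1 and at 14.4, 14.0 and 14.3 TPM in LLC. In Control it was at 13.5, 13.8, 13.8, 13 and 14.3 TPM and in Control + rFibcd1 at 14.3, 14.0, 14.6, 14.1 and 14.9 TPM. All 4 LLC + rFibcd1 mice were above the other 13 mice. They were so for Tek (15.5 to 20 TPM) alone among the endothelial markers, while Pecam1, Cdh5, Kdr, Tie1 and Egfl7 overlapped with other mice. The part of these cells was not tested. Fbxw4 rose by 0.13 ± 0.03 over Control + rFibcd1 (adjusted p = 0.0296) as deposited, and was at -0.006 with median-ratio scaling and at -0.001 with quantile normalization. Over LLC it was higher by 0.14 ± 0.04 with an unadjusted p of 0.00195 and an adjusted p of 0.137. Under the 3 other scalings this last difference was 0.20 to 0.30, with adjusted p from 0.129 to 0.177. Its exons overlap Gm17018 on the opposite strand over 21.4% of their bases.

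Across all mice, tumor-bearing (n = 7) against tumor-free (n = 10), 18 members (39.1%) were called, 17 higher (37.0%) and Fbxo3 lower (2.17%), beside 44.8% of all genes, 38.8% higher and 5.98% lower. The direction depended on the scaling here too, with 10 members higher and 3 lower without mitochondrial genes, 8 and 9 with median-ratio scaling, and 2 and 10 with quantile normalization. Of all called genes, 86.7% were higher as deposited and 68.9%, 49.4% and 35.4% under these scalings, so the members moved in the same direction. Of all tested genes, 25.2%, 17.8% and 13.7% were higher and 11.3%, 18.3% and 25% lower under these scalings. This comparison holds the mice of both tumor comparisons, so it adds no independent sample. Fbxl6 rose by 0.43 ± 0.07 (adjusted p = 0.000811) and Fbxo3 fell by 0.20 ± 0.04 (adjusted p = 0.00212). Both calls held under each of the 7 other settings, with adjusted p of at most 0.0230 and 0.0418, and without each of the 17 mice in turn, with adjusted p of at most 0.00312 and 0.00638. Fbxl19 rose by 0.46 ± 0.10 (adjusted p = 0.00313), Fbxo4 by 0.41 ± 0.12 (adjusted p = 0.0129), Fbxo5 by 0.39 ± 0.12 (adjusted p = 0.0165) and Fbxw9 by 0.39 ± 0.09 (adjusted p = 0.00618). Fbxl8, Fbxl18, Fbxl20 and Fbxo22 were called here but in neither tumor comparison alone. Fbxl8 was at 0.34 ± 0.11 (adjusted p = 0.0182), passed under 4 of the 7 other settings and did not pass without LLC replicate 3 (adjusted p = 0.0513). Fbxl20 was at 0.24 ± 0.09 (adjusted p = 0.0440), passed under 1 of the 7 and without 5 of the 17 mice, and was at 0.03 with quantile normalization (adjusted p = 0.776). Fbxl18 passed under 1 and Fbxo22 under 2 of the 7 other settings, and both turned below 0 with quantile normalization. With the B cell score in the fit, Fbxl6 (0.29) and Fbxo3 (-0.20) were the 2 members still called. The share of all genes still called in that fit is not given here.

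The comparison of LLC + rFibcd1 with LLC asks what rFibcd1 changed in tumor-bearing mice. No member was called by limma, where 0.113% of all genes (15 genes) were. At an unadjusted p under 0.05 there were 8 members (17.4%) and 22.7% of all genes, and Dunn's test with adjustment also called 0 members. The median of the members was -0.108 and that of all genes -0.115. The smallest p belonged to Fbxw4. Fbxo7 was at 3.36, 3.67, 3.63 and 3.32 TPM in LLC + rFibcd1, below the LLC mice and above the Control median of 3.14, with a difference from LLC of -0.22 ± 0.07 (adjusted p = 0.176) that was 0.018 with quantile normalization. Fbxo38 differed by -0.28 ± 0.09 (adjusted p = 0.177). The groups did not overlap for 7 members (15.2%) and for 14.6% of all genes.

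In tumor-free mice, Control + rFibcd1 against Control, limma called 0 members and 0% of all genes. At an unadjusted p under 0.05 there was 1 member (2.17%), Fbxw4 with 0.07 ± 0.03 (adjusted p = 0.927), beside 4.39% of all genes, and Dunn's test called 0. Fbxw7 and Fbxo11, next by p, differed by -0.15 ± 0.09 and -0.16 ± 0.10 (adjusted p = 0.927 for both). For the interaction of tumor and rFibcd1, which tests whether the rFibcd1 difference depended on the tumor, limma called 0 members and 0% of all genes, and 0 members against 8.58% of all genes had an unadjusted p under 0.05. The members with the smallest p were Fbxo9 (-0.20 ± 0.11), Fbxw2 (-0.11 ± 0.06) and Fbxo7 (-0.16 ± 0.09), with adjusted p of 0.637, 0.652 and 0.658.

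The genes that F-box proteins work with were measured from a list of SCF subunits and regulators. Of the SCF scaffold, 1 of 5 tested genes was called in LLC against Control as deposited: Cul7, the partner of Fbxw8, rose by 0.48 ± 0.13 (adjusted p = 0.0143), from 3.43 ± 0.312 TPM (SD, n = 5) to 5.27 ± 1.4 TPM (SD, n = 3), and was called higher with median-ratio scaling and without mitochondrial genes but not with quantile normalization (0.15, adjusted p = 0.207). Skp1a, the adaptor, was at 115 ± 3.48 TPM in Control and 119 ± 2.27 TPM in LLC, a difference of 0.05 ± 0.03 (adjusted p = 0.232). Cul1, the scaffold itself, differed by -0.02 ± 0.06 (adjusted p = 0.790) and Rbx1 by -0.05 ± 0.03 (adjusted p = 0.278) as deposited. With median-ratio scaling, quantile normalization and without mitochondrial genes, 3, 3 and 2 of the 5 were called lower. Of all genes 15.3%, 23.9% and 11% were. Rnf7, a relative of Rbx1 in this list, was among them under each. Rbx1 was called lower under the 3 other scalings, at -0.25, -0.19 and -0.16 (adjusted p = 0.0260, 0.0189 and 0.0235), and Cul1 with median-ratio scaling and quantile normalization, at -0.22 and -0.19 (adjusted p = 0.0245 and 0.0262). On the TPM scale, which is per length, their mean levels in Control (34.3 TPM for Cul1, 69.3 TPM for Rbx1) were above those of every member except Fbxw5 (above Cul1) and Fbxo40 (above Cul1 and Rbx1).

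Cullins are switched on by attachment of Nedd8 and off by the COP9 signalosome, and Cand1 exchanges F-box proteins. In LLC, 2 of the 10 NEDD8 pathway genes were called as deposited, and 5, 5 and 3 were called lower with median-ratio scaling, quantile normalization and without mitochondrial genes, where 15.3%, 23.9% and 11% of all genes were. Nedd8 rose by 0.11 ± 0.04 (adjusted p = 0.0381) as deposited but was at -0.092 and -0.043 with median-ratio scaling and quantile normalization. Dcun1d2, a helper of Nedd8 transfer, fell by 0.26 ± 0.08 (adjusted p = 0.0190), from 31.7 ± 2.53 to 26.2 ± 1.25 TPM, and was called lower under each of the other scalings. As deposited, none of the 9 COP9 genes and none of the 3 exchange genes passed in LLC, where limma gave Cand1 0.29 ± 0.12 (adjusted p = 0.0702) and its muscle form Cand2 -0.25 ± 0.10 (adjusted p = 0.0632). Under the other scalings COP9 genes were called lower, 6 with median-ratio scaling (Cops2, Cops3, Cops4, Cops5, Cops6 and Cops8, at -0.29 to -0.18), 5 with quantile normalization and 4 without mitochondrial genes, beside the same shares of all genes. Cand2 was called lower under all 3, at -0.45, -0.43 and -0.36 (adjusted p = 0.0290, 0.0239 and 0.0373). In rFibcd1-treated mice Nedd8 rose by 0.19 ± 0.04 (adjusted p = 0.00670) and Skp1a by 0.12 ± 0.03 (adjusted p = 0.0298) as deposited. Both calls were lost under the 3 other scalings, with Nedd8 at 0.05 to 0.12 and Skp1a at -0.027 with median-ratio scaling.

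Of the 7 ubiquitin-conjugating partners, Ube2d2a rose by 0.28 ± 0.09 (adjusted p = 0.0242), while Ube2d1 fell by 0.25 ± 0.06 (adjusted p = 0.0115) and Ube2g1 by 0.22 ± 0.07 (adjusted p = 0.0201) in LLC. The Ube2d2a call was lost under the 3 other scalings (0.08 to 0.17, adjusted p from 0.0605 to 0.340). With median-ratio scaling, quantile normalization and without mitochondrial genes, 4, 5 and 4 of the 7 were called lower in LLC and 0 higher. Of all genes 15.3%, 23.9% and 11% were called lower. Ube2d1 and Ube2g1 were called lower under each scaling, and Ube2g1 fell by 0.36 ± 0.06 in rFibcd1-treated mice with tumors (adjusted p = 0.00389). Ube2r2 rose by 0.11 ± 0.03 in these mice (adjusted p = 0.0497) as deposited, was not called there under the 3 other scalings, and was called lower in LLC under all 3, at -0.22 to -0.12. Of the F-box proteins under other names, 3 of 4 tested were called higher in LLC as deposited, 2 without mitochondrial genes, 1 with median-ratio scaling and 0 with quantile normalization. Of all genes 29.7%, 18.7%, 14.4% and 11.3% were called higher under these settings. Cyclin F (Ccnf), the founding F-box protein, rose by 0.59 ± 0.16 (adjusted p = 0.0172), from 0.790 ± 0.107 to 1.68 ± 0.113 TPM. The histone demethylases Kdm2b and Kdm2a, relatives of Fbxl19, rose by 0.31 ± 0.08 and 0.28 ± 0.09 (adjusted p = 0.0123 and 0.0248) as deposited. Kdm2b was at -0.024 with quantile normalization, and Kdm2a was called under none of the 3 other scalings, at 0.02 to 0.19. Btrc, the paralog of Fbxw11, was at -0.15 ± 0.06 (adjusted p = 0.0781) and was called lower under the 3 other scalings.

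**Figure D5:**
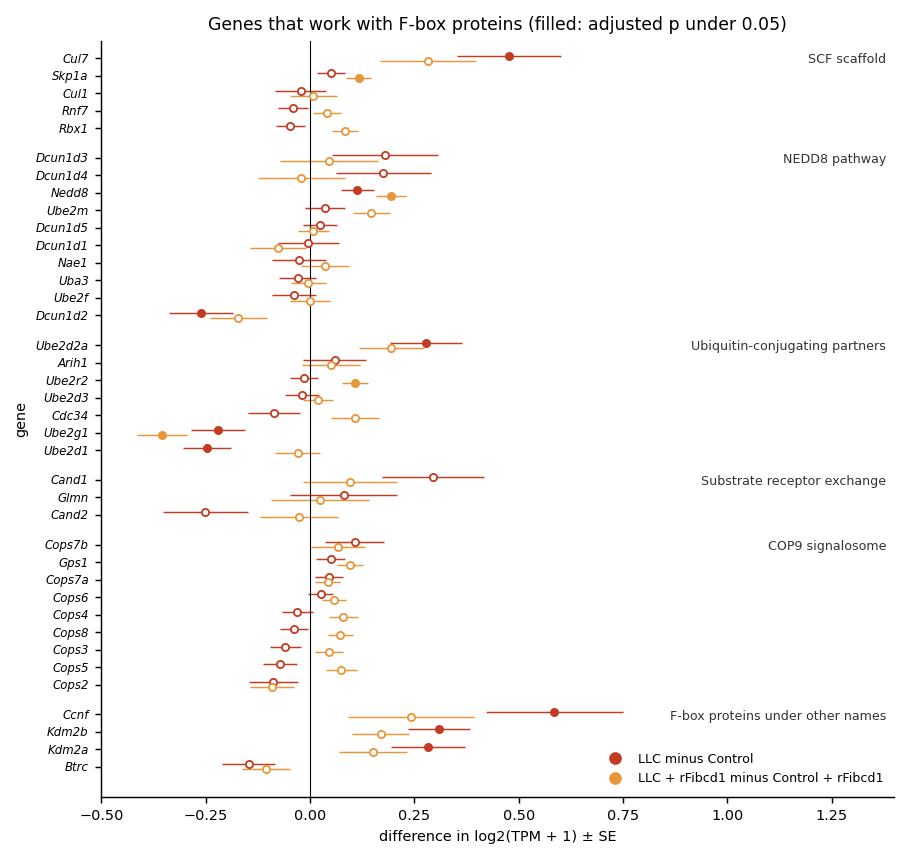
Difference in log2(TPM + 1) with its SE for 38 tested genes of the SCF machinery and F-box proteins under other names, in LLC against Control and in LLC + rFibcd1 against Control + rFibcd1, with filled points for an adjusted p under 0.05. Cul7 and Ccnf lie to the right at 0.48 and 0.59, and the 9 COP9 genes lie between -0.09 and 0.11 in LLC as deposited, where 6 of them were called lower with median-ratio scaling.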

How the data were processed

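RNA of 17 diaphragms was measured. The authors aligned and quantified the reads with CLC Genomics Workbench on the GRCm38 mouse genome and deposited TPM, which sum to 1e+06 per mouse. The annotation and whether counting used strand are not given in the sources used here, and the labels and methods name different library kits. Here log2(TPM + 1) was fitted with limma 3.58.1 (trend, R 4.3.3) over the 13305 genes at 1 TPM or more in at least 3 samples. The 4 groups entered 1 fit with 13 residual degrees of freedom, with Benjamini-Hochberg adjustment over all genes at 0.05. Differences of low genes come out smaller on this scale than as ratios of TPM. The fit was tested on simulated data. The labels give no mouse identities beyond the replicate number. The members and lists were chosen with earlier results of these data known. Genes named were the 10 most abundant members, those called with the 12 largest differences per comparison (or the 3 smallest p), the functional groups, and per pathway list the 2 smallest p and any called in either tumor comparison. Fbxl15, Fbxl17, Fbxo45, Cul1, Rbx1, Rnf7 and some COP9 genes were named besides. Of 76 members, 73 matched 1 GENCODE vM21 gene and 54 had a RefSeq promoter. One tested member enters the counts and medians but is not reported here by name or in the figures.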

Additional observations from a re-analysis of the deposited data

Results flagged for a closer look

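In 102 checks of 34 named members in the groups of 4 or 5 mice, 3 values lay far from the rest of their group by Dixon's test. Chance gives such a value in about 1 of 20 groups. Fbxo25 was at 8.92 TPM in Control + rFibcd1 replicate 5, above the other mice of that group. Fbxo46 was at 2.00 TPM in Control + rFibcd1 replicate 1, the mouse of that group with the most B cell marker RNA. Fbxw8 was at 16.1 TPM in Control replicate 1, below the other Control mice.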

How the results depend on the processing

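In LLC against Control the 14 members called became 7 with median-ratio scaling, 8 with quantile normalization and 6 without mitochondrial genes. The count was 0 with the replicate block, with the B cell score, with Dunn's test, and at an unadjusted p with a 1.5-fold change. That fold was taken on the log2(TPM + 1) scale, and as ratios of mean TPM 5 of the 14 were above 1.5 times. The median change of the members moved from 0.14 to -0.041, -0.097 and 0.049 under the 3 scalings and to 0.061 with the B cell score. In LLC + rFibcd1 against Control + rFibcd1 the 3 calls, all higher, were lost with median-ratio scaling and quantile normalization, where the count of 1 is Fbxo3, called lower. The count was 1 with the B cell score, and 0 with the replicate block, with only the compared groups fitted, with Dunn's test, and at an unadjusted p with a 1.5-fold change. The tumor-bearing count of 18 became 11 with the replicate block and 2 with the B cell score. Leaving out 1 mouse at a time gave 0 to 16, 0 to 8 and 13 to 22 for these 3 comparisons, 0 in each other comparison, and medians of 0.108 to 0.19. The shares of all genes are given above for the scalings of LLC against Control and of tumor-bearing mice, and for some single mice. For the other settings they are not given here, so those counts say nothing particular to the members. The labels do not say whether the replicate numbers pair the mice. Deviations of mice with the same number correlated at a median of -0.061 (-0.459 to 0.485), against -0.0255 for other pairs, which cannot settle the pairing.

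In LLC against Control the differences of 16 of the 46 tested members changed sign with median-ratio scaling, 26 with quantile normalization and 6 without mitochondrial genes, and the cause was not tested. Of the members called as deposited or with the smallest p in a comparison, those that did so were, with quantile normalization, in LLC against Control, Fbxo7 (-0.034), Fbxo38 (-0.019), Fbxw2 (-0.048) and Fbxo34 (-0.087); in LLC + rFibcd1 against LLC, Fbxo7 (0.018); in the interaction, Fbxo7 (0.007). In LLC + rFibcd1 against Control + rFibcd1 it was Fbxw4 with median-ratio scaling (-0.006) and quantile normalization (-0.001). In tumor-bearing against tumor-free mice, median-ratio scaling and quantile normalization gave Fbxw2 -0.019 and -0.049, Fbxw8 -0.012 and -0.007, Fbxo22 -0.073 and -0.062, and Fbxw4 -0.053 and -0.07, and quantile normalization gave Fbxl18 -0.108 and Fbxo7 -0.029. With 3 LLC mice, differences under about 2 SE are not resolved, and some larger ones did not pass either. Examples are Fbxo10 in LLC against Control (0.26 ± 0.10) and Fbxw4 in LLC + rFibcd1 against LLC (0.14 ± 0.04). TPM values carry no counting interval.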
